A study of Mus musculus with 16 samples.

Results

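The mitochondrial respiratory chain genes were followed through wounds of mouse skin with and without mechanical loading. A probe set was a member when its single gene symbol in the platform annotation began with Nduf or Uqcr, was Sdha, Sdhb, Sdhc, Sdhd or Cycs, or began with Cox4, Cox5, Cox6, Cox7 or Cox8. This gave 152 probe sets of 74 genes among 45101 probe sets on the array, and the rule reads gene symbols, not measured values. The tests ran on all 34958 probe sets with a single symbol, and another 10 probe sets that carry a respiratory chain symbol beside other symbols were left out. Of the member genes, 42 had more than 1 probe set, and these are not independent of each other. The muscle forms of cytochrome c oxidase, Cox6a2, Cox7a1 and Cox8b (4 probe sets), were kept apart from the 129 probe sets of ubiquitous subunits and cytochrome c.

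The respiratory chain sits in the inner mitochondrial membrane and passes electrons from food to oxygen while pumping protons, and the proton gradient drives ATP synthase. Complex I (NADH dehydrogenase, mostly Nduf genes) and complex II (succinate dehydrogenase, Sdh genes) feed electrons to complex III (cytochrome bc1, Uqcr genes). Cytochrome c (Cycs) carries them on to complex IV, cytochrome c oxidase (Cox genes), which reduces oxygen. Several complex IV subunits exist in alternative forms. Cox6a2, Cox7a1 and Cox8b are the forms of heart and skeletal muscle, while Cox6a1, Cox7a2 and Cox8a are made in most tissues. Cox7a1 and Cox8b are also made in brown fat. The mitochondrial genome encodes the catalytic core of complex IV and further subunits, which the rule does not cover.

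The tissue was incisional wound of the back skin of C57BL/6 mice in a model of hypertrophic scarring. There were 4 groups of 4 arrays: unstressed wounds at day 6, stressed wounds at day 6 after 48 hours of loading, unstressed wounds at day 14, and stressed wounds at day 14 after 10 days of loading. The series design gives 4 mice per group and time point. Whole wound tissue was used, so fewer cells of a type and less RNA per cell cannot be told apart. The deposited values are log values centred for each probe set, so they carry differences between arrays but no level of a gene against another gene. All 16 arrays are labelled female, yet Xist, the RNA that coats an inactive X chromosome, was high (4.38 to 5.39) in 4 arrays and low (-0.38 to 0.52) in 12. The mean of the Y-linked probe sets was -1.68 to -1.34 in the 4 arrays and -0.21 to 0.27 in the 12, which goes against the label for the 12. The 4 arrays are replicates 3 and 4 of both day 14 groups (the high Xist pairs), and replicates 1 and 2 of day 14 are the low Xist pairs. Day 14 results are given within each where it matters. Array medians over the tested probe sets lay between -0.06 and 0.05.

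Promoters of the muscle forms and their ubiquitous partners, as far as the table holds them, are printed because the expression results turn on these pairs. RefSeq promoters (build GRCm38.p6) were matched by symbol for 60 of the 74 genes, 62 promoters in all, and the 250 bases before the start site were searched on both strands. The motifs were the E-box CANNTG, bound by myogenic and many other factors, the core GCATGCGC of nuclear respiratory factor 1, the core CCGGAA of ETS factors such as GABP, and the TATA box TATAAA. Capitals mark each match to these 4 motifs, and every sequence reads 5′ to 3′ on the gene's strand. Cox7a1 lies at chr7:30183921-30184170 (+ strand), Cox8b at chr7:140900447-140900696 (- strand), Cox6a1 at chr5:115348959-115349208 (- strand), Cox7a2 at chr9:79759854-79760103 (- strand) and Cox8a at chr19:7217617-7217866 (- strand).
Cox7a1: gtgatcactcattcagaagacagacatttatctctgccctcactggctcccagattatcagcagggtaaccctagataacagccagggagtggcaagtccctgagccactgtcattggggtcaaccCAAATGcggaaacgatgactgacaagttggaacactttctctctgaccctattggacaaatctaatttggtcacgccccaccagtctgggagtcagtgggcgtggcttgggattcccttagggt
Cox8b: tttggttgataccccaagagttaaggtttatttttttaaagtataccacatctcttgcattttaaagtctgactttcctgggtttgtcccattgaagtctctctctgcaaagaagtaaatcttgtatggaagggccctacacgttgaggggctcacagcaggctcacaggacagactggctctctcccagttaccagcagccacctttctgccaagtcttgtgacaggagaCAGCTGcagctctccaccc
Cox6a1: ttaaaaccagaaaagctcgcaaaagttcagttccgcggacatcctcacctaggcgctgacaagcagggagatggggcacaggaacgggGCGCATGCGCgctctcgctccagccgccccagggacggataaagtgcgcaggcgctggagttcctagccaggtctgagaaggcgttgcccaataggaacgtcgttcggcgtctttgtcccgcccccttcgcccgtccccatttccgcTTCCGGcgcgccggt
Cox7a2: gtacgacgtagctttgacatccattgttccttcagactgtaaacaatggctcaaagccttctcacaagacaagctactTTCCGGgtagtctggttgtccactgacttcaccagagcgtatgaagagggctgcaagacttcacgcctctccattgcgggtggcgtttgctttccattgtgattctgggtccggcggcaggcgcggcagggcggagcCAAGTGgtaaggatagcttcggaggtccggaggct
Cox8a: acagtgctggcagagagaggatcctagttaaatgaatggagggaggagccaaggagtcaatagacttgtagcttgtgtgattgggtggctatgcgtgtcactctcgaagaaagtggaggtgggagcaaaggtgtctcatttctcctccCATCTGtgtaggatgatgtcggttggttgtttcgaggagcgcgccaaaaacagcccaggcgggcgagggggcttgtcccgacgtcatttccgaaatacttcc

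The capitals of Cox7a1, Cox8b and Cox8a are E-boxes, starting at -124, -19 and -102. In Cox6a1 the long run in capitals is 2 overlapping matches to the nuclear respiratory factor 1 core, starting at -162 and -160, and the short run at -15 is an ETS core. Cox7a2 has an ETS core at -172 and an E-box at -35. The nuclear respiratory factor 1 core was in 9.68% of the 62 member promoters and in 2.26% of all 32851 promoters of the same length. For the ETS core the shares were 27.4% and 12%. E-boxes were in 62.9% and 66.2%, and TATA boxes in 9.68% and 12.4%. Neither core was found in Cox7a1, Cox8b or the ubiquitous Cox8a, and Cox7a2 lacked the nuclear respiratory factor 1 core. These matches describe letters only.

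The first comparison asked how loading changed the wound at day 14. In stressed wounds 30 of the 152 probe sets were lower and 1 was higher (limma over all arrays, Benjamini-Hochberg adjusted p under 0.05), while 4.04% of all tested probe sets were called lower, 3.31% higher and 7.35% either way. The muscle forms of complex IV showed the largest falls, 4.37-fold to 7.48-fold. Core subunits of complex I, cytochrome c and single subunits of complexes II and III fell by smaller amounts, and Ndufa4l2 rose. The median difference of the 152 probe sets was -0.26 on the log2 scale, with 129 below 0, against a median of 0.01 over all tested probe sets. Groups did not overlap in 30 probe sets, all of them lower in stressed wounds, where 4.52% of all tested probe sets were lower and 5.55% higher without overlap.

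By role, the called falls covered 7 of 16 probe sets of complex I core subunits (median -0.49), 9 of 60 of accessory subunits (median -0.25) and 1 of 10 of complex I assembly factors (median -0.39). They covered 2 of 9 probe sets of complex II (median -0.37), 3 of 16 of complex III (median -0.30) and 2 of 4 of cytochrome c (median -0.48). In complex IV they covered 2 of 24 probe sets of ubiquitous subunits (median -0.14) and all 4 of the muscle forms (median -2.76). None was called among the 5 probe sets of other tissue forms of complex IV or the 3 of Cox7a2l, a factor that joins complexes III and IV. At the level of genes, 22 of 74 had at least 1 probe set called lower, and all probe sets were called lower in Cox6a2, Ndufa5, Ndufs7 and Ndufv1, counting genes with several.

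**Figure D1:**
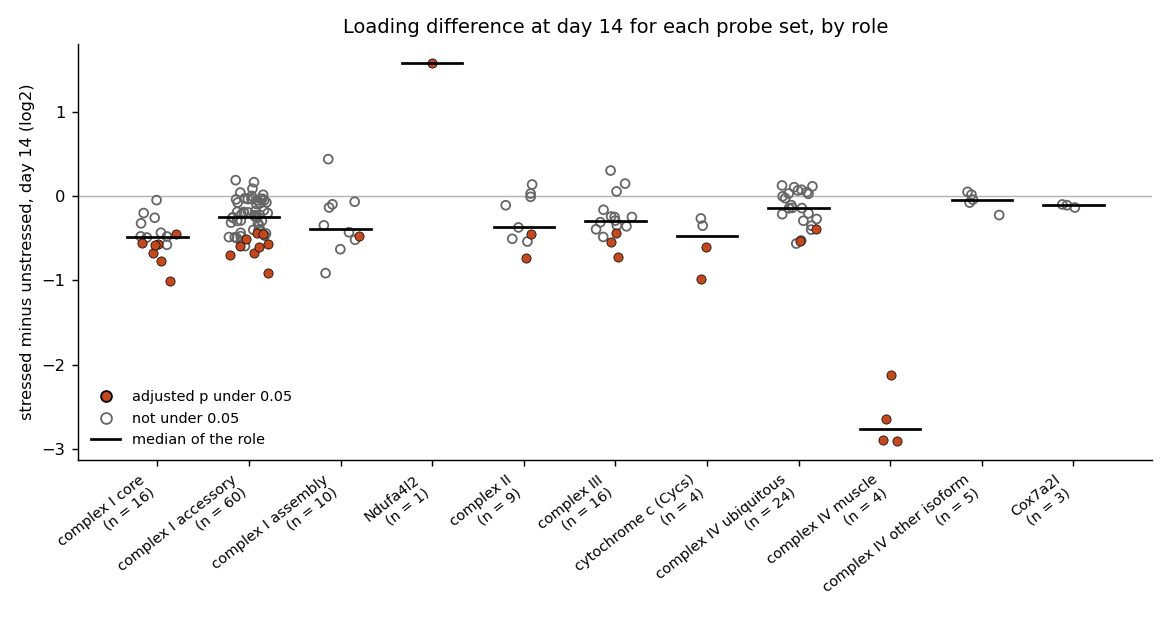
Difference between stressed and unstressed wounds at day 14 (log2, vertical axis) for each of 152 probe sets, by role (horizontal axis); filled points passed adjusted p under 0.05 and bars are role medians. The 4 muscle form probe sets lie between -2.90 and -2.13, the other called falls between -1.0 and -0.40, and Ndufa4l2 stands at 1.58.

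How many probe sets were called depended on the arrays and on the scaling. With the replicate number as a block (same-numbered arrays of day 14 deviated together) 14 were lower and 1 higher, after quantile normalization 5 were lower and none higher, and with the day 14 arrays fitted alone none was called. Over all tested probe sets these settings called 3.49%, 0.51% and 0.06% lower, and 2.77%, 0.54% and 0.29% higher. Outside the muscle forms, quantile normalization left 1 of 148 members lower (0.68%), near its share over all tested probe sets. The count of 31 became 57 without stressed day 14 replicate 4, and fell to 12, 9 and 14 without stressed day 14 replicates 1, 2 and 3. It was 13 and 15 without unstressed day 14 replicates 1 and 2, 20 without unstressed day 6 replicate 4, and 18 without stressed day 6 replicate 1 or replicate 3. Shares over all tested probe sets are not given for these fits without an array. So a change of the members cannot be told apart from a change of the whole table there. Within day 14, the median difference of the ubiquitous subunits and cytochrome c was -0.32 in the low and -0.28 in the high Xist pairs. With only the high Xist arrays at day 14 the count was 1, Ndufa4l2, where 0.91% of all tested probe sets were lower and 1.38% higher. With only the low Xist arrays at day 14, the same number of arrays, 40 members were lower and 2 higher. In that setting 10.97% of all tested probe sets were lower and 7.76% higher.

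Cox7a1, the muscle form of subunit 7a, had log2 values of 0.88, 1.04, -0.69 and 1.23 in the 4 unstressed wounds of day 14 and of -3.16, -2.15, -2.78 and -1.06 in the 4 stressed ones. The groups did not overlap, and the third unstressed wound was the lowest of its group while the fourth stressed wound was the highest of its group. The difference was -2.90 (SE 0.42, adjusted p = 0.0017), which is 7.48-fold. At day 6 the values were 0.24, -0.04, -0.09 and 0.35 unstressed and 0.56, 0.81, 0.04 and 0.25 stressed, overlapping groups.

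Cox8b is the muscle form of subunit 8. Its day 14 values were 0.86, 1.12, -0.61 and 1.45 unstressed and -2.88, -2.12, -2.91 and -0.81 stressed. Here too the groups did not overlap, and the difference was -2.89 (SE 0.43, adjusted p = 0.0020), 7.39-fold. Its day 6 values were 0.36, 0.91, 0.49 and 0.75 unstressed and 0.04, 0.20, -0.08 and -0.04 stressed. That day 6 difference of -0.60 had no overlap between the groups and did not pass the test over all probe sets (adjusted p = 0.99).

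Cox6a2, the muscle form of subunit 6a, was read by a pair of probe sets. The first, 1417607_at, gave 0.36, 0.65, -0.92 and 0.58 in unstressed and -2.97, -2.15, -2.07 and -0.64 in stressed wounds of day 14. The second, 1457633_x_at, gave 0.09, 0.17, -1.69 and 0.24 in unstressed and -3.63, -3.34, -3.19 and -1.60 in stressed wounds. In both, the third unstressed wound lay below the fourth stressed wound, so the groups overlapped. The differences were -2.13 (SE 0.40, adjusted p = 0.0061) and -2.64 (SE 0.42, adjusted p = 0.0026).

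All 4 muscle form probe sets stayed past the threshold with the replicate block (adjusted p 0.0005 to 0.0076) and after quantile normalization (0.0030 to 0.012), but not with the day 14 arrays alone (0.066 to 0.10). The differences of the muscle forms were -3.62 to -3.06 within the low Xist pairs and -2.28 to -1.19 within the high Xist pairs. None of the ubiquitous partners was called at day 14. Cox6a1 differed by 0.07 and 0.03 (adjusted p = 0.78 and 0.90), Cox7a2 by -0.29 and -0.14 (adjusted p = 0.073 and 0.45) and Cox8a by 0.12, 0.10 and 0.05 (adjusted p = 0.60, 0.65 and 0.89). Their array values stayed within a narrow band. As gene means over the 8 arrays of day 14 they ran from -0.35 to -0.0029 in Cox6a1, from -0.08 to 0.34 in Cox7a2 and from 0.32 to 0.58 in Cox8a.

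**Figure D2:**
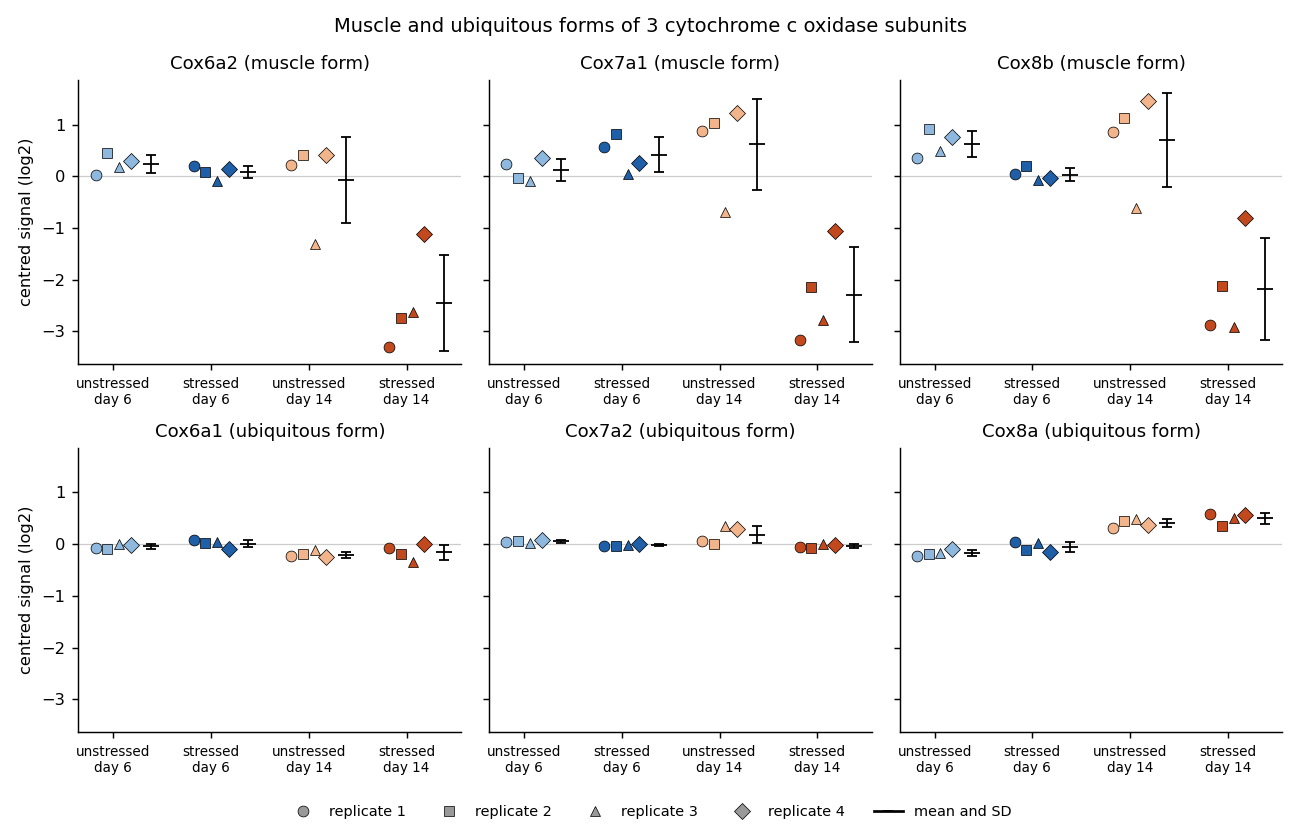
Centred signal (log2, vertical axis, shared by all panels) of the muscle form (upper row) and the ubiquitous form (lower row) of 3 complex IV subunits in each array, by group, with the mean and SD over 4 arrays; a gene is the mean of its probe sets. In the upper row the stressed wounds of day 14 lie at -0.81 or below, and 1 unstressed wound of day 14 lies at -0.61 or below in each panel, while the lower row stays between -0.35 and 0.58, with Cox8a higher at day 14 than at day 6 in both kinds of wound.

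The muscle form minus its ubiquitous partner, taken within each array, was compared by exact two-sided permutation tests, in 12 tests with Benjamini-Hochberg adjustment. With 4 against 4 arrays the smallest p is 0.029. At day 14 Cox7a1 minus Cox7a2 was 0.43 ± 0.98 (SD, n = 4) in unstressed and -2.25 ± 0.91 in stressed wounds, a difference of -2.68 without overlap (exact p = 0.029, adjusted p = 0.057). For Cox8b minus Cox8a the difference was -2.98 without overlap (exact p = 0.029, adjusted p = 0.057), and for Cox6a2 minus Cox6a1 it was -2.43 with overlap (exact p = 0.057, adjusted p = 0.098). At day 6 Cox8b minus Cox8a was 0.80 ± 0.22 in unstressed and 0.08 ± 0.18 in stressed wounds, without overlap (exact p = 0.029, adjusted p = 0.057). Cox6a2 minus Cox6a1 and Cox7a1 minus Cox7a2 differed at day 6 by -0.20 and 0.37 (exact p = 0.17 and 0.14, adjusted p = 0.23 and 0.21). None of the 12 passed 0.05 after adjustment.

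Markers of skeletal muscle moved with these values. Of 54 probe sets of the skeletal muscle list, 29 were called lower at day 14 and none higher, with a median of -2.12. Over all tested probe sets 4.04% were lower. The array means of that list were 0.47, 0.51, -0.92 and 0.46 in unstressed and -3.14, -1.79, -1.98 and -0.29 in stressed wounds of day 14. The muscle forms of complex IV had means of 0.55, 0.74, -0.98 and 0.88 and of -3.16, -2.44, -2.74 and -1.03 in the same arrays, and the ubiquitous subunits with cytochrome c had means of -0.04, -0.04, -0.11 and -0.07 and of -0.34, -0.40, -0.52 and -0.14. In all 3 sets the third unstressed wound was the lowest of its group and the fourth stressed wound the highest. The median difference of the muscle markers was -3.40 in the low and -0.87 in the high Xist pairs. In the same order it was -3.55 and -1.93 for the muscle forms, -0.65 and -0.37 for complex I core subunits, -0.51 and -0.14 for complex II, -0.33 and -0.32 for complex III, and, for all ubiquitous subunits with cytochrome c, -0.32 and -0.28 as given above. Cytochrome c had -0.60 and -0.36, and complex I accessory subunits -0.29 and -0.26. The fall was larger in the high Xist pairs for complex I assembly factors (-0.33 and -0.36), ubiquitous complex IV subunits (-0.13 and -0.17) and Cox7a2l (-0.04 and -0.16). Other tissue forms of complex IV had 0.08 and -0.02.

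Some other cell type lists moved as well, and others hardly moved. White adipocyte markers were lower in 18 of 25 probe sets (median -1.67), fibroblast markers higher in 14 of 26 (median 1.09) and macrophage and monocyte markers higher in 11 of 18 (median 1.26). After quantile normalization these counts were 3, 11 and 3, and with only the high Xist arrays at day 14 they were 1, 13 and 3. Skeletal muscle markers were then lower in 18 and in none of 54. Over all tested probe sets 4.04% were lower and 3.31% higher as deposited. The shares were 0.51% and 0.54% after quantile normalization, and 0.91% and 1.38% with only the high Xist arrays at day 14. Of 28 slow and cardiac muscle probe sets 1 was lower and 1 higher, 3.57% each way and near the shares of all tested probe sets. Of 22 suprabasal keratinocyte probe sets 1 was higher and none lower (median 0.12). Of 18 basal keratinocyte probe sets 2 were lower and none higher (median 0.06). None of 12 endothelial probe sets was called (median 0.53). The brown adipocyte list, which holds Cox8b itself, had 5 of 19 probe sets lower (3 of them of Ppargc1a) and 2 higher. Differences in that list ran from -2.89 to 2.49. Ucp1, Cidea and Elovl3, picked from the 9 genes of that list, differed by 0.06, -0.08 and -0.02 (adjusted p = 0.90, 0.94 and 0.98). They do not stand for the list, which went both ways. Because the values are centred, it could not be judged which markers were near background. The part of these cell types in the respiratory chain results was not tested.

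**Figure D3:**
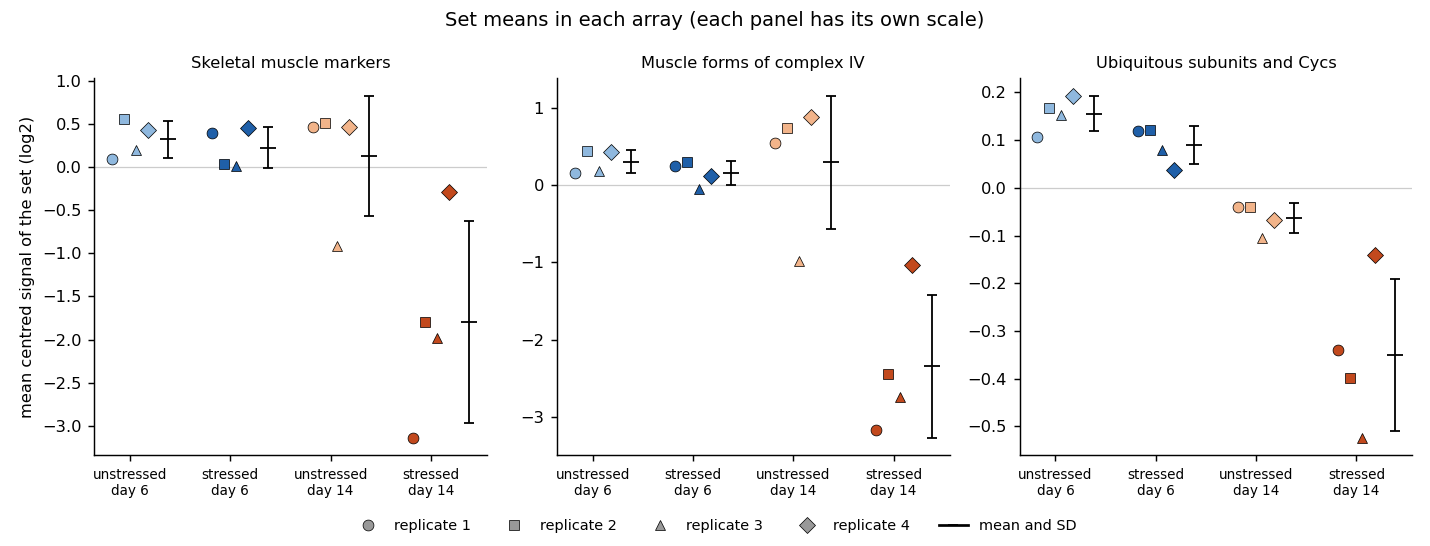
Mean centred signal (log2, vertical axis, own scale in each panel) of skeletal muscle markers, complex IV muscle forms and ubiquitous subunits with Cycs in each array, by group, with the mean and SD over 4 arrays. In every panel the fourth stressed wound of day 14 is the highest of its group, at -0.29, -1.03 and -0.14, and the third unstressed wound of day 14 the lowest of its group, at -0.92, -0.98 and -0.11.

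Complex I core subunits hold the flavin and iron-sulphur centres that take electrons from NADH, and all 16 of their probe sets lay below 0 at day 14. Ndufs7, which carries the last iron-sulphur cluster before ubiquinone, gave -0.03, -0.09, -0.41 and -0.11 in unstressed and -1.20, -1.53, -1.30 and -0.64 in stressed wounds. These groups did not overlap. Ndufs7 was 2.01-fold lower in stressed wounds (1424313_a_at, -1.0, SE 0.19, adjusted p = 0.0072), and its second probe set fell by 0.78 (adjusted p = 0.020).

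Ndufv1, the flavin-bearing subunit where NADH enters, fell in each of its 3 probe sets, by 0.68, 0.57 and 0.59 (adjusted p = 0.020, 0.037 and 0.035). With the replicate block the first stayed called (0.039) and the others did not (0.064 and 0.072). Ndufv2, its iron-sulphur partner, was called in 1 of 3 probe sets (-0.45, adjusted p = 0.048, and 0.10 with the block). Ndufs8, another iron-sulphur subunit, was called in 1 of 6 probe sets (1455283_x_at, -0.56, adjusted p = 0.046, and 0.12 with the block), and its others lay between -0.58 and -0.05. Ndufs1 and Ndufs3 differed by -0.48 and -0.49 and were not called (adjusted p = 0.15 and 0.085).

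Among the accessory subunits of complex I, which surround the core, Ndufs4 1438166_x_at had the largest fall. Its values were -0.01, -0.51, -0.16 and -0.47 in unstressed and -1.12, -1.26, -1.67 and -0.74 in stressed wounds of day 14, without overlap (-0.91, SE 0.22, adjusted p = 0.022). The other 3 probe sets of Ndufs4 lay at -0.41, -0.40 and -0.04 and were not called, so the probe sets of this gene disagree. Ndufa5 fell in both probe sets, by 0.69 (adjusted p = 0.014) and 0.44 (adjusted p = 0.034, and 0.071 with the block). The larger of these was -0.25, -0.35, -0.67 and -0.58 in unstressed and -1.17, -1.04, -1.48 and -0.95 in stressed wounds, without overlap. Ndufb7 1448331_at fell by 0.68 (adjusted p = 0.045, and 0.087 with the block) and Ndufb9 1436803_a_at by 0.60 (adjusted p = 0.010), while Ndufb9 1455934_at differed by 0.00.

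The 5 remaining called accessory probe sets were of Ndufa12, Ndufb10, Ndufb2, Ndufb6 and, as given, the second of Ndufa5, with differences of -0.59 to -0.44. With the replicate block none of these 5 passed (adjusted p 0.058 to 0.10). No accessory probe set was called higher, and the largest positive difference was 0.19, in Ndufc2. Of the assembly factors, which build complex I and leave it, only Ndufaf8 was called (-0.48, adjusted p = 0.046, and 0.064 with the block). Ndufaf4 1435333_at differed by -0.91 and was not called (adjusted p = 0.071), but was with the replicate block (0.028) and with the Xist class as a block (0.0064), and Ndufaf2 differed by 0.44 (adjusted p = 0.085).

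Succinate dehydrogenase, complex II, also works in the citrate cycle. Sdha, its flavoprotein, gave 0.32, 0.26, -0.22 and 0.47 in unstressed and -0.89, -0.47, -0.87 and 0.11 in stressed wounds in probe set 1426689_s_at. The fourth stressed wound lay among the unstressed ones. The probe set fell by 0.74 (SE 0.20, adjusted p = 0.040), and the other 3 Sdha probe sets, at -0.51, -0.11 and 0.14, were not called. Sdhb, the iron-sulphur subunit, was 0.11, 0.29, 0.10 and 0.20 against -0.35, -0.27, -0.44 and -0.05, without overlap. It fell by 0.45 (SE 0.12, adjusted p = 0.039, and 0.095 with the block). The membrane anchors were not called, with Sdhc at -0.37 and -0.54 (adjusted p = 0.084 and 0.21) and Sdhd at -0.01 and 0.03 (adjusted p = 0.99 and 0.96).

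In complex III the small subunit Uqcr10 carried the largest fall. Probe set 1434340_at gave -0.07, -0.46, -0.46 and 0.12 in unstressed and -1.06, -0.70, -1.28 and -0.73 in stressed wounds, without overlap (-0.73, SE 0.16, adjusted p = 0.016). A second Uqcr10 probe set fell by 0.44 (adjusted p = 0.031, and 0.054 with the block), as did Uqcrq 1430326_s_at by 0.55 (adjusted p = 0.041, and 0.10 with the block). The other 3 probe sets of Uqcrq lay on either side of 0, at 0.15, 0.30 and -0.25. The large core proteins were not called, with Uqcrc1 at -0.35 (adjusted p = 0.15) and Uqcrc2 at -0.36 and -0.24 (adjusted p = 0.21 and 0.45). Neither was the Rieske iron-sulphur protein Uqcrfs1 (-0.39, adjusted p = 0.15).

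Cytochrome c shuttles electrons from complex III to complex IV and triggers apoptosis when it leaves the mitochondrion. Cycs 1422484_at gave 0.38, 0.26, 0.01 and -0.02 in unstressed and -0.70, -1.14, -0.95 and -0.48 in stressed wounds, well apart. It fell 1.97-fold (-0.98, SE 0.15, adjusted p = 0.0021), and it was the one called probe set outside the muscle forms that also passed after quantile normalization (adjusted p = 0.029). Probe set 1456071_a_at fell by 0.60 (adjusted p = 0.014, and 0.060 with the block). The remaining Cycs probe sets, at -0.35 and -0.27, were not called (adjusted p = 0.087 and 0.44).

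**Figure D4:**
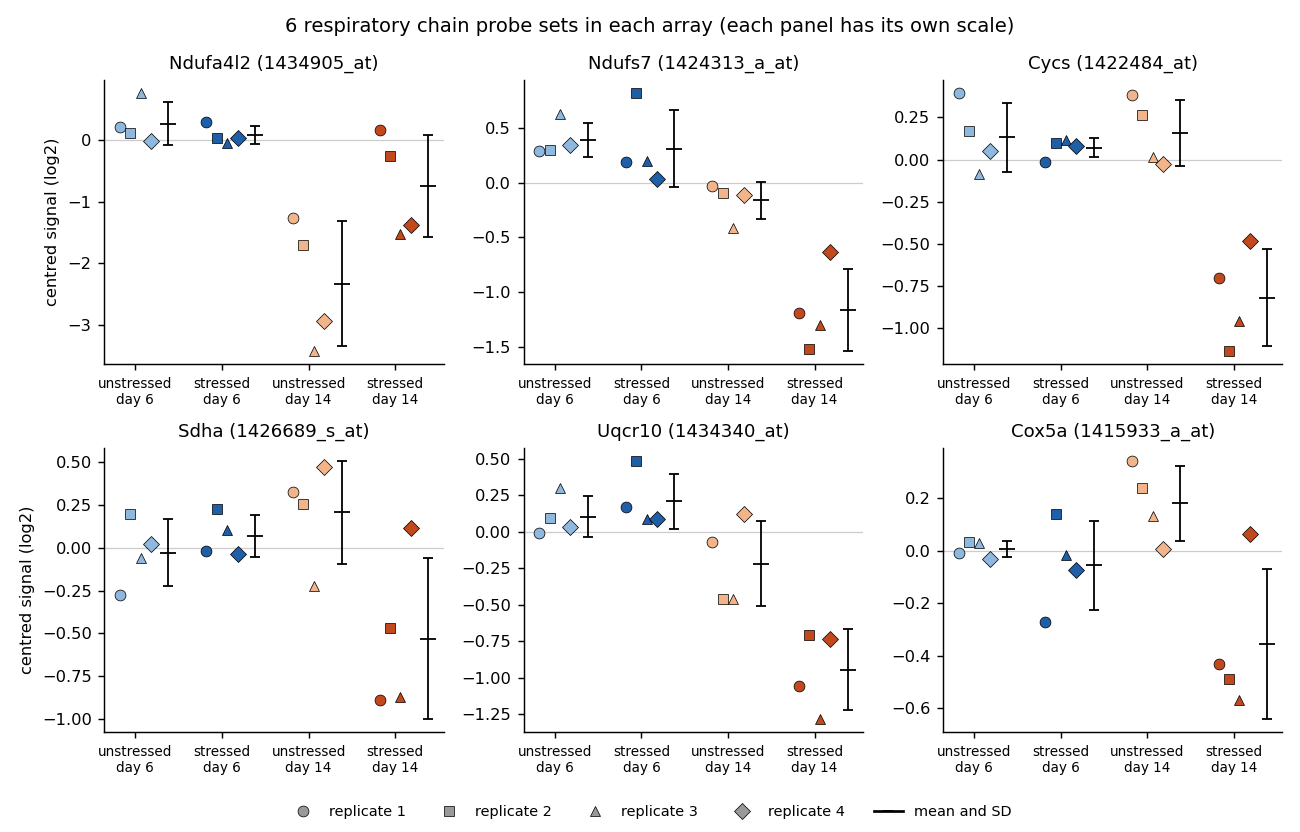
Centred signal (log2, vertical axis, own scale in each panel) of 6 probe sets in each array, by group, with the mean and SD over 4 arrays. Ndufs7, Cycs and Uqcr10 do not overlap between stressed and unstressed wounds of day 14, Sdha, Cox5a and Ndufa4l2 do, and Ndufa4l2 is the one that is higher in stressed wounds.

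Among ubiquitous complex IV subunits only Cox5a was called at day 14. Cox5a, a matrix-side subunit, was called lower in 2 of 3 probe sets, by 0.54 (adjusted p = 0.029, and 0.076 with the block) and 0.40 (adjusted p = 0.047, and 0.10 with the block). Its first probe set gave 0.34, 0.24, 0.13 and 0.01 in unstressed and -0.43, -0.49, -0.57 and 0.06 in stressed wounds, and the fourth stressed wound overlapped. Cox4i1, the common form of the regulatory subunit 4, differed by -0.22 (adjusted p = 0.29), and Cox4i2, its form in lung and in low oxygen, by -0.08 (adjusted p = 0.87). Ndufa4, named for complex I but a subunit of complex IV, differed by -0.03 (adjusted p = 0.92).

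Ndufa4l2 is a relative of Ndufa4 known as a target of hypoxia-inducible factor. It was -1.26, -1.70, -3.42 and -2.93 in unstressed and 0.15, -0.26, -1.52 and -1.37 in stressed wounds of day 14. The groups overlapped only through the first unstressed wound, which lay above the third and the fourth stressed ones, and within each pair of same-numbered wounds the stressed one was higher. The rise was 1.58 (SE 0.43, adjusted p = 0.039), 2.98-fold. Both Xist classes showed it, with 1.43 in the low and 1.73 in the high pairs. With the replicate block adjusted p was 0.0014, and after quantile normalization it was 0.16.

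At day 6, after 48 hours of loading, no member was called in either direction by limma, and 0.0257% of all tested probe sets were (0.0143% higher, 0.0114% lower). At an unadjusted p under 0.05 there was 1 member, lower, and 1982 of all tested probe sets. The median difference was -0.07, with 101 of 152 below 0. Groups did not overlap in 5 members that were lower and 1 that was higher, against 3.05% and 3.11% of all tested probe sets. Ndufab1, the mitochondrial acyl carrier protein held in complex I, had the largest difference in 1435934_at (-0.76, adjusted p = 0.44), and it passed after quantile normalization (-1.01, adjusted p = 0.032) and with array weights (-0.71, adjusted p = 0.032). The other 4 Ndufab1 probe sets lay between -0.35 and 0.03.

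Whether loading acted differently at day 14 than at day 6 was tested as an interaction. No member was called by limma, and 0.00858% of all tested probe sets were (0.00286% higher, 0.00572% lower), while 35 members had an unadjusted p under 0.05, 32 of them more negative at day 14. So the day 14 falls were not shown to differ from the day 6 differences over the whole set. The largest interactions were in Cox7a1 (-3.20, SE 0.60, adjusted p = 0.098), Cox6a2 (-2.52 and -1.95), Cox8b (-2.29) and Ndufa4l2 (1.76, SE 0.61, adjusted p = 0.35). Cox7a1 passed with the replicate block (adjusted p = 0.041) and with the Xist class as a block (0.046). Ndufa4l2 passed with the Xist block (0.015) and with only the high Xist arrays at day 14 (0.030). With only the low Xist arrays at day 14, 19 members passed, 17 of them more negative at day 14. In that setting 5.13% of all tested probe sets were called more negative and 2.74% more positive. Without stressed day 14 replicate 4, 8 probe sets passed, of Cox6a2, Cox7a1, Cox8b, Cycs, Ndufs7 and Sdha, and without unstressed day 14 replicate 3 the muscle forms Cox7a1, Cox8b and Cox6a2 1457633_x_at passed. The shares over all tested probe sets without these arrays are not given, so these passes cannot be set against them.

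Between day 6 and day 14 more members fell than rose in both kinds of wound. In unstressed wounds 52 of 152 probe sets were lower and 17 higher at day 14, against 23.4% lower and 16.8% higher of all tested probe sets. In stressed wounds 89 were lower and 13 higher, against 26.6% and 18.7%. Either way, 40.2% and 45.3% of all tested probe sets were called. Groups did not overlap in 62 members that were lower and 19 higher in unstressed wounds (21.8% and 16.5% of all) and in 78 lower and 9 higher in stressed wounds (23.4% and 16.5%). The median change was -0.22 in unstressed and -0.49 in stressed wounds, and -0.05 and -0.07 over all tested probe sets. After quantile normalization all tested probe sets split into 6039 higher and 6310 lower in unstressed wounds (5874 and 8167 as deposited) and into 6775 and 6579 in stressed ones (6541 and 9309), and the members into 16 and 52 and into 13 and 62. Of the falls, 47 were called in both kinds of wound, 5 in unstressed wounds alone and 42 in stressed wounds alone, and no probe set was called in opposite directions. A call in one and not in the other is not a difference between them: that difference is the interaction above, and none passed. In stressed wounds day and length of loading cannot be told apart. Only day 14 holds high Xist arrays, and with only the low Xist arrays at day 14 the counts were 46 lower and 12 higher in unstressed, and 90 lower and 10 higher in stressed wounds.

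Complex I fell most broadly with time. In stressed wounds 14 of 16 core probe sets, 38 of 60 accessory and 8 of 10 assembly factor probe sets were lower, and in unstressed wounds 8, 26 and 5. Ndufc1 1448284_a_at, an accessory subunit of the membrane arm, had the largest fall of any ubiquitous subunit. It was 0.49, 0.27, 0.52 and 0.49 at day 6 and -1.41, -1.24, -0.99 and -1.28 at day 14 in unstressed wounds, and 0.38, 0.63, 0.25 and 0.17 against -1.59, -1.47, -1.85 and -1.19 in stressed wounds. Neither pair of groups overlapped, and the changes were -1.67 (SE 0.15, adjusted p = 3e-06) and -1.88 (SE 0.15, adjusted p = 1.6e-06). Its other probe set, 1416285_at, rose by 0.48 in unstressed wounds (adjusted p = 0.033) and changed by 0.20 in stressed ones (adjusted p = 0.36), so the probe sets of Ndufc1 disagree.

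Ndufv1 1415966_a_at fell by 0.89 in unstressed and 1.46 in stressed wounds, Ndufa5 1417285_a_at by 0.88 and 1.55, and the assembly factor Ndufaf1 by 1.06 and 1.31. Ndufb8 1458404_at fell by nearly equal amounts, 0.93 and 0.86. Ndufs7 1424313_a_at fell by 0.55 and 1.48, Ndufs8 1423907_a_at by 0.85 and 1.05, and the accessory subunit Ndufa7 by 0.96 and 0.99 in 1455749_x_at. Ndufab1 1435934_at fell by 1.08 in unstressed wounds and changed by -0.36 in stressed ones (adjusted p = 0.20). Ndufs4 1438166_x_at changed by -0.54 in unstressed wounds (adjusted p = 0.060) and fell by 1.52 in stressed ones. The assembly factors Ndufaf6, Ndufaf3 and Ndufaf2 fell by 0.63 and 1.40, by 0.84 and 1.02, and by 0.96 and 0.40. Some accessory probe sets rose. Ndufb9 1455934_at rose by 0.68 and 0.77 and Ndufb2 1442658_at by 0.34 and 0.36, though other probe sets of both genes fell in stressed wounds, and Ndufb4 rose by 0.53 in stressed wounds.

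In complex III, 8 of 16 probe sets were lower and 1 higher in stressed wounds, and 4 lower and 3 higher in unstressed wounds. The unstressed shares, 25% and 18.8%, were near the 23.4% and 16.8% of all tested probe sets. In stressed wounds 26.6% of all tested probe sets were lower and 18.7% higher. Uqcrc2 1435757_a_at, a core protein, fell by 1.14 and 1.30, and the small subunit Uqcr11 by 0.72 and 0.94. Uqcr10 1434340_at fell by 1.15 in stressed wounds, while Uqcr10 1424364_a_at rose by 0.39 in unstressed ones. Uqcrq 1427880_at rose by 0.39 and 0.57, and Uqcrq 1437134_at fell by 0.83 in unstressed wounds. All 3 probe sets of Cox7a2l fell in both kinds of wound, by 0.65 to 0.85 unstressed and by 0.69 to 0.87 stressed. Complex II had no probe set lower in unstressed wounds and 3 of 9 lower in stressed ones (33.3%, against 26.6% of all). Sdhc 1435986_x_at rose in both, by 0.80 and 0.48, while in stressed wounds Sdhc 1448630_a_at, Sdha 1426689_s_at and Sdhb fell by 0.80, 0.60 and 0.33.

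**Figure D5:**
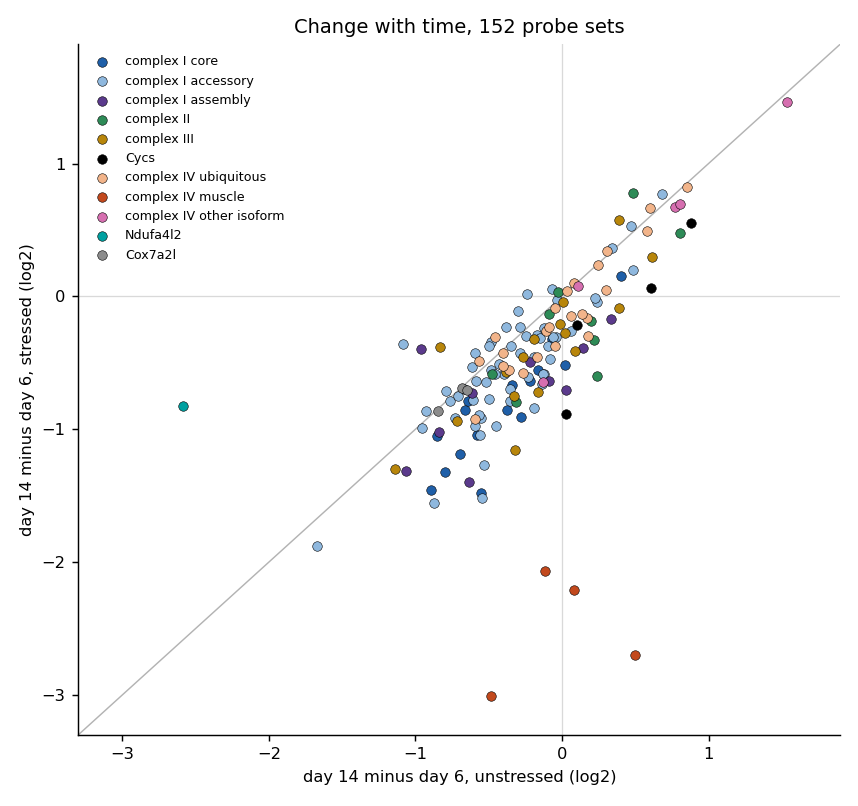
Change from day 6 to day 14 (log2) of each of 152 probe sets in unstressed wounds (horizontal axis) and stressed wounds (vertical axis), coloured by role; the grey diagonal marks equal change. Most points lie below 0 on both axes, the 4 muscle form probe sets lie between -3.0 and -2.07 in stressed and between -0.49 and 0.50 in unstressed wounds, and Ndufa4l2 stands at -2.59 and -0.83.

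Of the muscle forms, in unstressed wounds none was called with time, with changes of -0.49 to 0.50, while in stressed wounds all 4 probe sets fell, with changes of -3.0 to -2.07 (adjusted p 8.9e-05 to 0.00097), without overlap. These changes share the stressed day 14 arrays with the loading comparison. Ndufa4l2 fell by 2.59 in unstressed wounds (SE 0.43, adjusted p = 0.00034) and changed by -0.83 in stressed ones (SE 0.43, adjusted p = 0.13).

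Ubiquitous complex IV subunits went both ways. Of their 24 probe sets 5 were lower and 5 higher in unstressed wounds (median 0.00), and 9 lower and 4 higher in stressed wounds (median -0.20). In unstressed wounds that is 20.8% each way, near the 23.4% lower and 16.8% higher of all tested probe sets. In stressed wounds it is 37.5% lower and 16.7% higher, against 26.6% and 18.7%. Of the 24, those called lower in both kinds of wound included Cox6a1 1417417_a_at (-0.40 and -0.43), Cox6c 1434491_a_at (-0.40 and -0.52), Cox6b1 1436757_a_at (-0.36 and -0.55), Cox7c 1459884_at (-0.57 and -0.49) and Ndufa4 (-0.45 and -0.30). Cox7c 1459885_s_at fell by 0.92 in stressed wounds and changed by -0.59 in unstressed ones (adjusted p = 0.20). Cox5b, the zinc-binding subunit, rose in 1436149_at by 0.60 and 0.67 and fell in 1454716_x_at by 0.58 in stressed wounds.

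Some other complex IV genes rose, while Cox6b2 was called lower in stressed wounds (-0.65) and Cox7b2 was not called. Cox8c, a form described in testis, gave -0.63 to 0.23 over the 8 arrays of day 6 and 1.09 to 1.61 over the 8 of day 14 in 1443789_x_at. It rose by 1.54 and 1.46, and its second probe set rose by 0.80 and 0.70. Cox8a rose in all 3 probe sets, by 0.31 to 0.85 in unstressed and 0.34 to 0.83 in stressed wounds. Cox4i2 rose by 0.77 and 0.67 (adjusted p = 0.0088 and 0.016), against -0.11 and -0.26 for Cox4i1 (adjusted p = 0.50 and 0.081). Cycs disagreed among its probe sets in stressed wounds, where 1445484_at rose by 0.55 and 1422484_at fell by 0.89.

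Genes that work beside the chain were taken as lists. At day 14, loading left the ATP synthase list with 2 of 35 probe sets lower (median -0.15), Atp5a1 and Atp5pb, by 0.54 and 0.46. The citrate cycle list had 9 of 39 lower (median -0.36), led by the pyruvate dehydrogenase subunit Dlat (-0.93) and the isocitrate dehydrogenase subunit Idh3g (-0.78). Fatty acid oxidation had 11 of 30 lower (median -0.54), among them Decr1 (-1.06), Acaa2 (-0.94) and Hadhb (-0.90). Assembly factors of complexes IV and III had none of 39 called by limma (median -0.05), while 6 had an unadjusted p under 0.05, 5 of them lower. None of these 4 lists had a probe set called higher. The share called lower over all tested probe sets, 4.04%, is near the 5.71% of the ATP synthase list and below the 23.1% and 36.7% of the citrate cycle and fatty acid oxidation lists. After quantile normalization the counts lower were 0, 0 and 1, with only the high Xist arrays at day 14 they were 0, 0 and 2, and with the replicate block 1, 6 and 9. In the same order of settings 0.51%, 0.91% and 3.49% of all tested probe sets were lower.

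Regulators of mitochondrial genes had 7 of 30 probe sets lower and none higher (median -0.25). They were 3 of the coactivator Ppargc1a (-1.13, -1.04 and -0.91), 2 of the mitochondrial DNA packaging factor Tfam (-0.67 and -0.46), 1 of the muscle regulator Perm1 (-1.04) and 1 of the mitochondrial RNA polymerase Polrmt (-0.66). The factors whose cores were searched above were not called, with Gabpa at -0.15 and -0.01 and Nrf1 at -0.47 to 0.15. Carriers and creatine energy transfer had 7 of 34 lower (median -0.31), with the mitochondrial and cytosolic creatine kinases of muscle, Ckmt2 (-4.42) and Ckm (-2.86, also on the muscle list), ahead of the adenine nucleotide carrier Slc25a4 (-1.01). Regulators and carriers had 1 and 2 probe sets lower after quantile normalization, and 2 and none with only the high Xist arrays at day 14. Over all tested probe sets 4.04% were lower as deposited, and 0.51% and 0.91% in these settings.

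With time, assembly factors of complexes IV and III were lower in 18 of 39 probe sets in unstressed and 25 in stressed wounds, with 4 and 3 higher. ATP synthase was lower in 10 and 15 of 35, with none and 1 higher. The citrate cycle list was lower in 7 and 19 of 39 with 3 and 2 higher, and fatty acid oxidation was lower in 4 and 16 of 30 with 3 and 1 higher. Beside the 23.4% and 26.6% lower over all tested probe sets, the citrate cycle and fatty acid oxidation lists had smaller shares in unstressed wounds, 17.9% and 13.3%, and larger ones in stressed wounds, 48.7% and 53.3%. Surf1, an assembly factor of complex IV, fell by 1.31 in unstressed and 1.05 in stressed wounds.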

How the data were processed

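Total RNA of 16 wound samples was measured on Affymetrix arrays, and the authors used GeneSpring GX 11.0 for them, per the labels. How background, summarization and scaling between arrays were handled is not given in the sources used here. Values were deposited as log values read as log2 and centred per probe set by the authors, as the values show. One probe set spans 10.1 across the arrays, more than the 4.82 possible in log10 for a 16-bit scan. If the values were natural logs, every difference would be larger than printed. The reference of the centring is unknown and cancels in differences. The number of arrays limits the precision, and detection could not be judged.

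Probe sets were named through the platform annotation table: 34958 had 1 gene symbol and were tested, 932 had several and 9211 none. No filter on low values was applied. A limma model (version 3.58.1, lmFit and eBayes, run in R 4.3.3) took the group means of all 16 arrays, with 5 two-sided contrasts and Benjamini-Hochberg adjustment over all tested probe sets at 0.05. Isoform differences were tested by exact permutation, listing all splits of the arrays, under Python 3.11.15 with pandas 2.3.3 and numpy 2.4.6. Figures were drawn with matplotlib 3.10.9. Fold is 2 to the power of the difference. On simulated data for the day 14 loading contrast over 34958 probe sets, 73% of changes of 1 and 93% of changes of 2 were recovered with 7 false calls. The simulated noise held no correlation between probe sets and the same spread in all 4 groups. In the data, set means of the muscle forms had SDs of 0.15 and 0.16 at day 6, and 0.86 and 0.92 at day 14. False calls under such unequal spread were not tested.

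Replicates of a group differed with an SD of at least 0.238, so no array repeated another. Same-numbered arrays of stressed and unstressed wounds deviated together at day 14 (correlations 0.25, 0.17, 0.26 and 0.14, all above 0.1) and not at day 6 (-0.15, -0.42, -0.24 and -0.001). The replicate block at day 14 rests on this check and not on the labels. Unstressed day 14 replicate 2 correlated best with stressed replicate 1, not 2. Same-numbered arrays share their Xist class, so true pairs and a shared class cannot be told apart. Named were the isoform pairs, Cox4i1, Cox4i2, the Sdh genes, Cycs, Uqcrc1, Uqcrc2, Uqcrfs1 and Ndufa4l2, the 3 largest called changes each way per role and comparison, genes whose probe sets disagree, and leading called genes of the pathway lists (marker lists are given as counts). Picked with their values in view were further genes named at day 14 (the other called members, Ndufs1, Ndufs3, Ndufaf2, Ndufaf4 and Ndufa4), and Ndufab1, Ndufb8 and Surf1. The members and lists were chosen with earlier results of these data known.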

Additional observations from a re-analysis of the deposited data

Results flagged for a closer look

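Of 124 groups of 4 arrays tested over 31 role means and genes, 6 held an array far from the other 3 by Dixon's criterion, and chance gives about 1 in 20. Cox6a2 in unstressed wounds of day 14 was -1.30 in replicate 3, against 0.22 to 0.41 in the others. Sdha in stressed wounds of day 14 was 0.13 in replicate 4, against -0.26 to -0.20. Complex III in unstressed wounds of day 14 was 0.015 in replicate 4, against -0.085 to -0.070. The rare tissue forms of complex IV in stressed wounds of day 6 were 0.42 in replicate 2, against -0.10 to -0.072. Uqcrfs1 was -0.61 in replicate 2 of the stressed wounds of day 6, against -0.0085 to 0.036. It was also -0.38 in replicate 3 of the unstressed wounds of day 14, against 0.025 to 0.059. The causes were not tested.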

How the results depend on the processing

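Counts of members called are given first for the day 14 loading comparison, 31 as reported. It was 5 after quantile normalization, 57 with array weights, 0 with the arrays of the compared groups alone, 15 with the replicate block, 15 of 74 genes by the probe set of largest interquartile range, 19 of 74 by gene means, 1 with only the high Xist arrays at day 14, and 9 to 57 when an array was left out. With only the low Xist arrays at day 14, 40 members were lower and 2 higher (10.97% and 7.76% of all tested probe sets). With the Xist class as a block 39 were lower and 2 higher (6.62% and 5.07% of all). Of the 31, 14 kept their call with the replicate block, 31 with the Xist class as a block, 31 with each array centred on its median and 25 with only the low Xist arrays at day 14. At day 6, 0 members became 1 after quantile normalization and 1 with array weights. The difference between days, 0 as reported, was 8 with array weights, 2 with the Xist block, 1 with the replicate block, 19 and 1 with only low or only high Xist arrays at day 14, and 0 to 8 when an array was left out. Change with time was 69 in unstressed wounds, and 34 by gene means, where fewer features were tested. In stressed wounds it was 102, and 57 and 54 by 1 probe set or the mean per gene. The replicate block changed no other count by more than 1.5 times, and same-numbered arrays of different days were not pairs. The other changes' causes were not tested. Shares over all tested features are not given for array weights, for gene level values or with an array left out, so those counts have no baseline.

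Isoform differences kept their direction except Cox6a2 minus Cox6a1 with time in unstressed wounds, -0.14, which ran from -0.32 to 0.30 when an array was left out. Adjusted over 12 tests, more passed 0.05 under some settings, since more of them reached the smallest possible p. After quantile normalization these were Cox6a2 minus Cox6a1 (-1.85 loading at day 14, -1.75 time in stressed wounds), Cox7a1 minus Cox7a2 (-2.01 and -2.21) and Cox8b minus Cox8a (-2.24 and -2.06, with -0.94 for loading at day 6 and -0.76 for time in unstressed wounds). With the probe set of largest interquartile range they were -2.67 and -2.58, -2.76 and -2.61, and -3.01 and -3.04, with -0.75 for Cox8b minus Cox8a at day 6. Leaving out an array gave -2.87 to -2.12, -3.17 to -2.40 and -3.45 to -2.72 for the 3 pairs at day 14, and 0.18 to 0.86 for Cox7a1 minus Cox7a2 with time in unstressed wounds. Quantile normalization split the probe sets called at day 6 over all those tested into 338 higher and 157 lower, from 5 and 4.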
